A study of Mus musculus with 21 samples.

Results

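Mouse lung fibroblasts treated with CHIR alone were compared with fibroblasts that received the solvent DMSO alone. The members were chosen by the treatment label: 3 libraries labelled CHIR and 3 labelled DMSO, 6 of the 21 RNA sequencing libraries of the series, compared over the 16197 of 52636 genes that passed a filter on low counts. CHIR is given by that short name, which commonly stands for an inhibitor of GSK3, the kinase encoded by Gsk3a and Gsk3b. In resting cells GSK3 sits in a complex with Axin that marks beta-catenin for breakdown. Where the kinase is blocked, beta-catenin gathers, enters the nucleus and joins TCF and LEF factors at Wnt target genes, some of which, such as Axin2, feed back on the pathway. The same kinase phosphorylates glycogen synthase, JUN, D cyclins, NRF2 and the lysosomal regulator TFEB, and fibroblasts of the lung both send and receive Wnt signals.

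The cells were fibroblasts carrying Ly6C and Sca-1, surface proteins also found on adventitial fibroblasts, stimulated in culture, and total RNA was sequenced with a stranded kit. The groups used here were CHIR, DMSO, TGFb1 + CHIR and TGFb1 + DMSO, with 3 libraries each, where TGFb1 is a cytokine that drives fibroblasts to lay down matrix. The remaining libraries (TGFb1 alone, TGFb1 + IL1b and TGFb1 + TNF, 3 each) entered the estimate of the spread and a few levels given below. The sources used here give no strain, age, dose or time. They also do not say whether CHIR was dissolved in DMSO or whether a library stands for its own culture or animal, so p-values measure the spread between these libraries, which may be technical.

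The 6 libraries held 20575669 to 28441137 counts. CHIR and DMSO libraries parted on component 1 of a principal component analysis (61.7% of the variance). Component 2 (11.2%) parted DMSO library 1 from the other DMSO libraries. Without that library 3284 genes were higher and 3397 lower. Mitochondrial genes took 0.992%, 1.17% and 0.962% of counts in CHIR and 0.591%, 0.564% and 0.561% in DMSO. Ly6a, which encodes Sca-1, was at 136, 146 and 143 CPM (counts scaled to library size) in DMSO and 57.6, 59.05 and 65.2 CPM in CHIR (-1.23 ± 0.0700 on the log2 scale ± SE, adjusted p = 3.04e-18). Ly6c1 was at 49.5, 51.7 and 48.2 CPM in DMSO and 10.5, 11.3 and 13.2 in CHIR (-2.1 ± 0.0991, adjusted p = 3.38e-24). Reads of Ly6c1 could be shared with its close copy Ly6c2. Both label genes were thus present in every library and lower in all 3 CHIR libraries. The 16 adventitial fibroblast markers summed to 6027 to 6459 CPM in CHIR and 4558 to 4681 in DMSO. Most of the sum came from Dcn, also a pan-fibroblast marker, and Serpinf1. The counts of markers called, here and for the other cell types, stand beside 22.1% of all genes tested higher and 22.7% lower. Of 15 adventitial markers tested 5 were higher (Dcn, Serpinf1, Col15a1, Col14a1 and Igfbp6). The 7 lower were Ly6a, Ly6c1, Cd34, Clec3b, Mfap5, Entpd2 and Ebf2. Dpp4, a defining marker, was near 0. Immune, epithelial, endothelial, mesothelial and glial markers were low. The 13 immune markers summed to 1.64 to 3.12 CPM in CHIR and 3.08 to 4.10 in DMSO, with 5 of them at 0 in all 6 libraries and 2 of 4 tested lower. The 13 epithelial markers summed to 9.61 to 11.8 and 8.10 to 10.7 CPM, with 3 at 0 and 0 of 3 tested past the test. The 12 endothelial markers summed to 13 to 14.2 and 11.6 to 13.1 CPM, with 3 at 0, and 2 of 7 tested were higher, Emcn (1.86, 2.13 and 0.779 CPM in CHIR, 0.306, 0.0672 and 0.0405 in DMSO) and Pecam1 (adjusted p = 0.0101). The 9 mesothelial markers, 5 of them at 0, summed to 8.64 to 9.94 CPM in CHIR and 13.3 to 16.7 in DMSO, and all 3 that were tested fell. The 9 glial markers, 1 of them at 0, summed to 5.32 to 9.13 CPM in CHIR and 9.08 to 13.8 in DMSO, with 2 of 4 tested lower. The 12 mural and smooth muscle markers were not low, at 1365 to 1401 CPM in CHIR and 1127 to 1210 in DMSO, most of it from Pdgfrb, which fibroblasts express too. Of 9 tested 3 were higher and 4 lower, and Higd1b was at 0. Myh11, the smooth muscle myosin, rose to 6.04, 6.81 and 7.79 CPM from 1.395, 0.739 and 0.405 (2.99, adjusted p = 2.24e-08), and Rgs5 by 2.13 on the log2 scale. The part of these markers in any result below was not tested, and in bulk RNA fewer cells of a type and less RNA per cell cannot be told apart.

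The response was broad and mostly shallow, with its deepest changes on the falling side. Of the 16197 genes tested, 7260 passed (44.8%; edgeR quasi-likelihood test, Benjamini-Hochberg adjusted p under 0.05), 3578 of them higher with CHIR (22.1%) and 3682 lower (22.7%). At 2-fold or more, 436 were higher (2.69%) and 986 lower (6.09%). At 4-fold or more the counts were 117 and 353, and at 8-fold or more 19 and 97. Of the genes past the test, 4541 (62.5%) had changed by less than 1.5-fold, and the median log2 fold change over all genes tested was -0.014. The CHIR and DMSO libraries did not overlap for 8589 genes (53%).

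**Figure D1:**
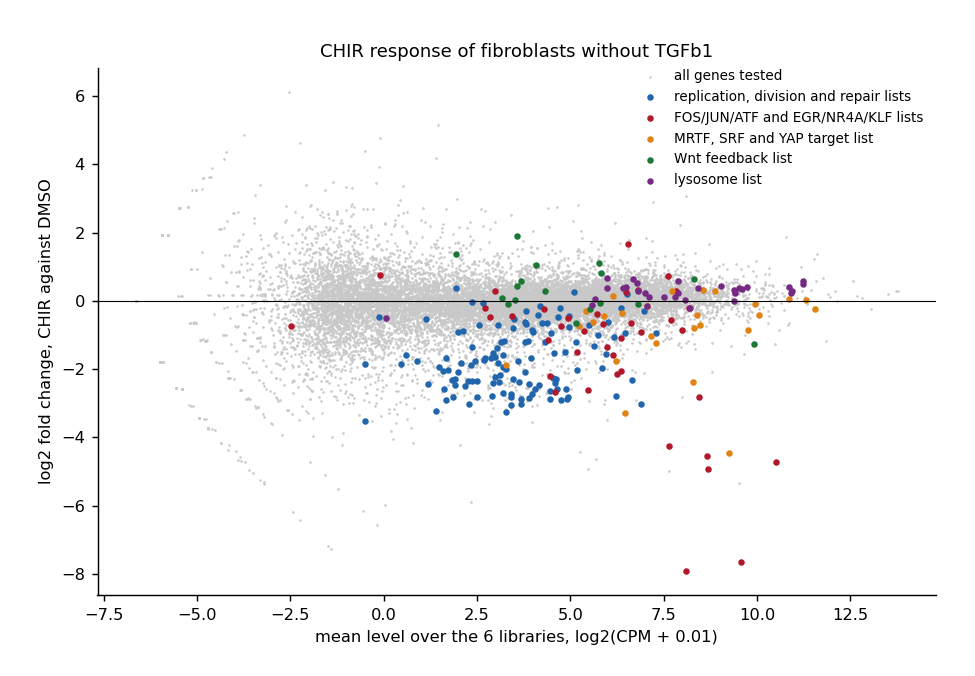
Log2 fold change of CHIR against DMSO (y axis) against mean level over the 6 libraries (x axis, log2 of CPM + 0.01), 1 grey point per gene tested, with the members of 5 sets of gene lists in colour. Replication and division genes (blue) lie mostly below 0, and the early genes (red) hold the lowest points, Fosb (-7.91) and Fos (-7.66).

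Igfbp5, a secreted binding protein for insulin-like growth factors (ENSMUSG00000026185, chromosome 1, 72857932 to 72874884, minus strand, GRCm38), stood at 61.1, 55.5 and 59.2 CPM in the DMSO libraries and at 514, 505 and 450.1 in the CHIR libraries. The groups lay far apart, and the lowest CHIR library was 7.37 times the highest DMSO library. The log2 fold change was 3.06 ± 0.116 (adjusted p = 2.31e-12). Col15a1, a collagen of the zone beneath basement membranes, rose from 39.02, 33.8 and 32.3 CPM to 274, 252 and 261 (2.9 ± 0.0720, adjusted p = 6.43e-31). These are the first 2 of the 20 genes with the highest fold change among those past the test that had a mean of at least 2 log2 CPM and groups that did not overlap, and further ones encode proteins of the cell surface or its surroundings. They include the engulfment receptor Megf10 (2.8), the ephrin receptor Ephb1 (2.71), the muscarinic receptor Chrm2 (2.34), the oxidised-LDL receptor Olr1 (2.15) and the prokineticin receptor Prokr1 (2.1). Slc40a1, the iron exporter ferroportin, rose from 13.8, 16.3 and 15.3 to 62.3, 61.4 and 62.4 CPM (2.03 ± 0.0892). Enpp2, which encodes autotaxin, the enzyme that makes lysophosphatidic acid, rose from 880.4, 692 and 711 to 2870, 2908 and 2504 CPM (1.86 ± 0.0857) and was also among the 10 genes that gained most CPM. Nfatc2, a transcription factor that calcineurin activates, rose from 1.74, 1.61 and 1.58 to 11.2, 11.1 and 9.45 CPM (2.69 ± 0.255). Ppp1r3c, a subunit that brings protein phosphatase to glycogen, rose from 3.47, 3.06 and 2.92 to 19.04, 16.96 and 18.4 CPM (2.52 ± 0.191). Mmd, a membrane protein named from macrophages, rose from 89.6, 84.7 and 86.02 to 394, 432 and 378 CPM (2.21 ± 0.0978).

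The 10 genes that gained most CPM were Col1a1 (0.29), Col1a2 (0.21), Fn1 (0.3), Postn (0.57) and Aebp1 (0.59), with Grem1, a secreted BMP antagonist (1.37), the gelatinase Mmp2 (1.23), Enpp2, the endocytic receptor Lrp1 (0.68) and mt-Cytb (0.98). Grem1 stood at 1756, 1755 and 1737 CPM in DMSO and 4590, 4763 and 4194 in CHIR, and Mmp2 at 1892, 1719 and 1670 and 4187, 4005 and 4200. The lowest CHIR library was 2.39 times the highest DMSO library for Grem1 and 2.12 times for Mmp2. The 10 that lost most CPM included Egr1, Fos, Zfp36 and Ccn1, early response genes described below. The adhesive matrix protein gene Thbs1 fell from 5161, 5181 and 4856 to 2200, 2302 and 2197 CPM (-1.18 ± 0.0407), and the chemokine gene Cxcl12 from 1924, 2031 and 2065 to 833, 836 and 846 (-1.26 ± 0.0487). The other members were the collagen chain gene Col3a1 (-0.25), the collagen crosslinker gene Lox (-0.85), Vim (-0.7) and Actb (-0.66). Acta2, the smooth muscle actin of myofibroblasts, fell from 1155, 1084 and 1102 to 624, 663 and 565 CPM (-0.85 ± 0.0493, adjusted p = 2.79e-16).

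**Figure D2:**
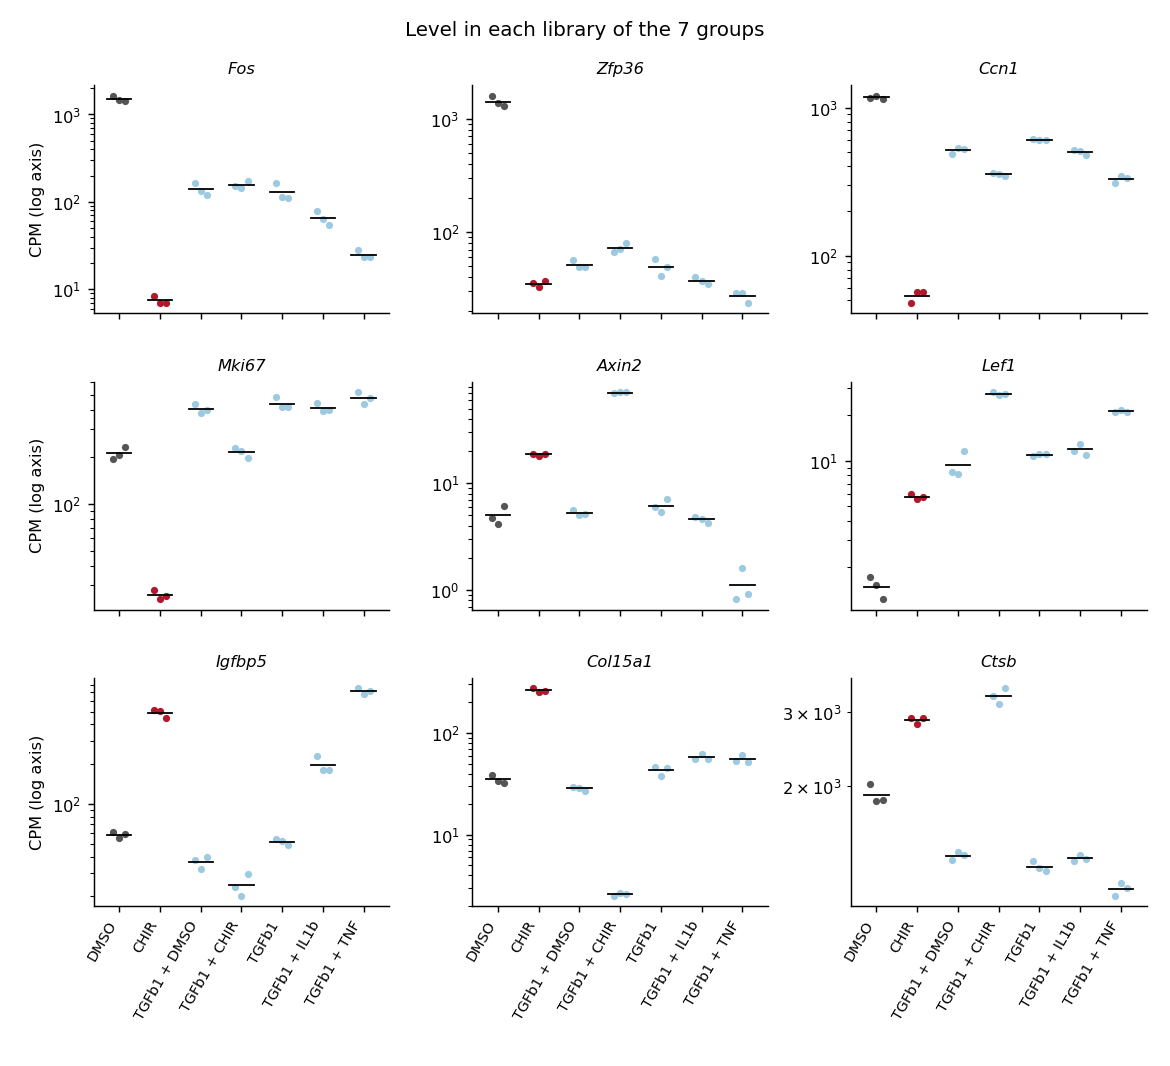
Level in each library (CPM, log axis) of selected genes in all 7 groups, 1 point per library. Fos, Zfp36 and Ccn1 stand highest in DMSO and Mki67 lowest in CHIR, while Axin2 stands above DMSO in CHIR and higher again in TGFb1 + CHIR.

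The Wnt pathway was described from 5 lists ordered by role, from ligand to feedback gene. Over their 87 tested members, 39 were higher (44.8% against 22.1% of all genes), 14 lower (16.1% against 22.7%) and 34 did not pass, with a median log2 fold change of 0.17 beside -0.014 for all genes. Axin2, the scaffold that both serves and answers the pathway (ENSMUSG00000000142, chromosome 11, 108920349 to 108950783, plus strand), stood at 4.695, 4.13 and 6.16 CPM in DMSO and 18.9, 17.9 and 18.99 in CHIR. The 3 CHIR libraries lay close together and well above DMSO (1.91 ± 0.123, adjusted p = 7.31e-19). Lef1, a DNA-binding partner of beta-catenin, rose from 1.701, 1.51 and 1.22 CPM to 5.998, 5.55 and 5.79 (1.95 ± 0.162, adjusted p = 6.73e-15). Nkd1, a Dishevelled inhibitor and a common readout of the pathway, went the other way, from 52.7, 49.9 and 47.8 CPM to 43.4, 39.4 and 43.9 (-0.25 ± 0.0724, adjusted p = 0.00387).

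Among the Wnt ligands, 11 were tested, 3 rose (27.3% against 22.1% of all genes) and 1 fell (9.09% against 22.7%). With transcript length and GC fitted 2 rose. Wnt2 was low and rose from 0.646, 0.436 and 1.297 to 2.42, 1.64 and 2.24 CPM (1.44 ± 0.277), and Wnt5a, a ligand mostly of the beta-catenin-independent branch, from 37.2, 33.3 and 31.8 to 41.9, 39.97 and 44.2 (0.3 ± 0.0664; 0.11, adjusted p = 0.169, with transcript length and GC fitted). Wnt11 rose from 0.476, 0.604 and 1.22 to 1.23, 1.56 and 1.61 CPM (0.97 ± 0.248). Wnt9a was the ligand that fell, from 2.86, 3.73 and 4.78 to 1.86, 2.21 and 1.899 CPM (-0.91 ± 0.159). Of 18 receptors and co-receptors, 10 rose (55.6%) and 2 fell (11.1%). Fzd3 rose from 23.7, 23.5 and 27.04 to 56.4, 58.5 and 53.7 CPM (1.19 ± 0.0832), and Lgr6, a receptor for R-spondin, from 0.408, 0.873 and 0.446 to 3.46, 1.82 and 1.95 (2.06 ± 0.270). The frizzled gene Fzd1 moved less (0.29), the co-receptor genes Lrp5 (0.21) and Lrp6 (0.32) rose by little (0.07 for each with transcript length and GC fitted, where neither passed), and Fzd5 fell from 43.3, 50.6 and 50.5 to 30.7, 28.7 and 27.6 CPM (-0.73 ± 0.0843).

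Inside the cell, the 23 genes of the destruction complex and its transducers moved in both directions (median 0.006). Of them 10 were higher (43.5% against 22.1% of all genes) and 6 lower (26.1% against 22.7%). Gsk3b rose from 166, 164 and 161 to 203, 217 and 202 CPM (0.34 ± 0.0463) and Ctnnb1, which encodes beta-catenin, from 1147, 1211 and 1204 to 1566, 1577 and 1624 (0.42 ± 0.0347). Gsk3a was at 36.9, 32.8 and 37.1 CPM in DMSO and 32.7, 30.2 and 29.6 in CHIR (-0.21 ± 0.0789, adjusted p = 0.0298), and its call was lost without CHIR library 2 (-0.19), CHIR library 3 (-0.18), DMSO library 1 (-0.18) or DMSO library 3 (-0.17) and with DESeq2 (-0.19, adjusted p = 0.0507). With transcript length and GC fitted its sign turned (0.0088, adjusted p = 0.944). Tnks, a tankyrase that marks Axin for turnover, rose (0.41). Frat2, which encodes a GSK3-binding protein, fell from 9.76, 7.05 and 8.63 to 3.09, 2.7 and 2.48 CPM (-1.61 ± 0.209), and the Dishevelled gene Dvl1 fell (-0.53). Of 18 TCF partners and other nuclear factors 7 rose (38.9%) and 2 fell (11.1%). Tcf7 rose from 2.82, 2.15 and 3.04 to 5.33, 3.73 and 5.45 CPM (0.86 ± 0.167) and Sox9, a chondrogenic factor that binds beta-catenin, from 33.2, 38.7 and 38.2 to 84.2, 79.1 and 84.2 (1.17 ± 0.0698). The co-repressor gene Tle2 fell from 31.6, 28.7 and 26.7 to 13.2, 13.5 and 11.9 CPM (-1.17 ± 0.112).

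The feedback genes and secreted antagonists moved in both directions, with more rises. Of 17 tested, 9 rose (52.9% against 22.1% of all genes), 3 fell (17.6% against 22.7%) and 5 did not pass. Their median was 0.29. With transcript length and GC fitted 8 rose and 3 fell, with a median of 0.15. Notum, which encodes an enzyme that strips the lipid from Wnt ligands, rose from 2.82, 1.75 and 1.86 to 6.97, 4.91 and 4.72 CPM (1.37 ± 0.309). Trabd2b, a protease that trims Wnt ligands, rose from 34.1, 34.4 and 35.9 to 78.3, 72.4 and 74.1 (1.11 ± 0.0638). The decoy receptor gene Frzb rose from 9.83, 12.4 and 10.9 to 21.7, 23.5 and 23.2 CPM (1.05 ± 0.145), and Bambi (0.59), Dkk2 (0.45) and Dkk3 (0.64) rose less. Znrf3, a ligase that removes frizzled receptors, rose by 0.29 (adjusted p = 0.00622), and its call was lost without DMSO library 1 (0.23, adjusted p = 0.0545) and with transcript length and GC fitted (0.15). Sfrp1, another secreted decoy, fell from 1447, 1314 and 1297 to 562, 582 and 555 CPM (-1.26 ± 0.0905), and Apcdd1, a membrane inhibitor, from 44.4, 47.1 and 38.3 to 24.4, 29.6 and 29.5 (-0.64 ± 0.0838). The summed level of the list, of which Sfrp1 held the largest part, was 1963 to 2125 CPM in DMSO and 1434 to 1477 in CHIR, although more of its members rose than fell. Ccnd1, a D cyclin often counted among beta-catenin targets, fell from 75.5, 91.5 and 97.4 to 22.3, 20.2 and 19.1 CPM (-2.1 ± 0.0805, adjusted p = 5.49e-22).

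Many of the deepest falls were those of early response genes, which cells switch on within minutes of a stimulus and which encode transcription factors and RNA decay proteins. Fos, a subunit of AP-1 (ENSMUSG00000021250, chromosome 12, 85473890 to 85477273, plus strand), stood at 1644, 1475 and 1431 CPM in the DMSO libraries and 8.42, 6.96 and 6.96 in the CHIR libraries. The lowest DMSO library was 170 times the highest CHIR library (-7.66 ± 0.225, adjusted p = 9.68e-14). Fosb fell from 657, 512 and 459.6 to 2.35, 2.09 and 2.34 CPM (-7.91 ± 0.223), Junb from 864, 764 and 749 to 24.96, 24.9 and 29.2 (-4.92 ± 0.104), Jun from 641, 592 and 587 to 85.6, 86.02 and 89.5 (-2.8 ± 0.0748) and Jund from 111, 104 and 105 to 35.3, 35.1 and 36.4 (-1.59 ± 0.0610). Of the 17 tested genes for FOS, JUN and ATF factors 12 were lower and 3 higher (70.6% lower against 22.7% of all genes, median -0.56). Their summed level was 4175 to 4785 CPM in DMSO and 939 to 955 in CHIR.

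Other early factors went the same way. Of 23 tested genes for EGR, NR4A, KLF and further early factors, 19 were lower and 2 higher (82.6% lower, median -0.92). Egr1 fell from 2971, 2792 and 2677 to 107, 109 and 106 CPM (-4.71 ± 0.120, adjusted p = 1.31e-14) and Nr4a1, an orphan nuclear receptor, from 853, 767 and 707 to 30.9, 34.4 and 33.8 (-4.56 ± 0.235). Ier2 fell from 421, 375 and 341 to 17.4, 20.7 and 21.3 CPM (-4.26 ± 0.122), the shear-responsive factor gene Klf2 from 43.2, 43.9 and 37.2 to 5.59, 6.73 and 7.26 (-2.67 ± 0.130), and Hes1, an effector of Notch, from 83.9, 74.8 and 69.4 to 10.8, 11.8 and 15.2 (-2.61 ± 0.166). Srf itself, the factor that binds serum response elements, fell from 92.6, 90.8 and 86.8 to 34.6, 37.8 and 33.8 CPM (-1.35 ± 0.0610). Klf10, best known as a gene that TGFb induces, was an exception and rose from 41.2, 47.04 and 45.9 to 145, 138 and 145 CPM (1.68 ± 0.0601).

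Some genes whose proteins end early messages and cytokine messages fell as well. Zfp36, which encodes tristetraprolin, a protein that targets AU-rich messages for decay, fell from 1603, 1372 and 1291 to 35.2, 32.8 and 36.9 CPM (-5.35 ± 0.135, adjusted p = 1.25e-14), and Btg2, which recruits the deadenylase, from 428, 377 and 352 to 11.6, 11.6 and 13.3 (-4.99 ± 0.169). The mRNA decay list as a whole, these genes included, was mixed, with 8 of 22 higher (36.4%), 5 lower (22.7%, as over all genes) and a median of 0.021. With transcript length and GC fitted 5 were higher and 6 lower (median -0.035). Of 18 ERK feedback genes 9 fell (50%) and 6 rose (33.3%). Dusp1, a phosphatase that switches off MAP kinases, fell from 473, 443 and 426 to 65.8, 67.7 and 58.1 CPM (-2.81 ± 0.118). The ETS factor genes Etv1 (6.97, 8.696 and 7.58 to 23.2, 24.7 and 21.6 CPM, 1.58 ± 0.155) and Etv5 (5.54, 5.37 and 7.42 to 18.2, 16.1 and 18.4 CPM, 1.53 ± 0.114), which ERK raises in many cells, rose, as did Dusp4 (0.93) and Spry4 (0.49).

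The early genes were set against all 7 groups. Fos had a mean of 1517 ± 112 CPM in DMSO, 7.45 ± 0.842 in CHIR, 129 ± 29.4 in TGFb1, 139.6 ± 24 in TGFb1 + DMSO and 156 ± 15.3 in TGFb1 + CHIR (mean ± SD, n = 3). Its level with TGFb1 + IL1b was 65.9 ± 11.8 and with TGFb1 + TNF 24.9 ± 2.88 CPM. DMSO was thus the highest of the 7 groups and CHIR the lowest, and the 3 groups TGFb1, TGFb1 + DMSO and TGFb1 + CHIR had overlapping spreads. Zfp36 had 1422 ± 162 CPM in DMSO, 34.96 ± 2.04 in CHIR, 49.04 ± 8.42 in TGFb1, 51.6 ± 4.44 in TGFb1 + DMSO and 72.5 ± 7.31 in TGFb1 + CHIR, so that its DMSO level lay far above the other levels given. Over the 57 tested genes of the 3 lists, DMSO had the highest group mean for 20 (35.1% against 18.3% of all genes). CHIR had the lowest for 29 (50.9% against 24.3%). Some deep falls had DMSO highest, such as Junb (792 CPM, next 348 in TGFb1 + TNF) and Ier2 (379, next 132 in TGFb1 + IL1b). Hes1 and Ier3 also fell but stood higher in TGFb1 + IL1b than in DMSO. Of the 986 genes lower by 2-fold or more, DMSO was highest for 433 (43.9%). These genes were chosen by a higher level in DMSO than in CHIR, which by itself raises this share. The labels do not say whether the DMSO and CHIR cultures were handled together. In the running numbers of the library titles, DMSO comes first and CHIR last of the 7 groups. What these numbers stand for is not given.

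Genes that the factors SRF with MRTF, and TEAD with YAP, are known to drive formed a further falling group. Of 26 tested, 19 were lower, 3 higher and 4 did not pass (73.1% lower, median -0.44). Ccn1, a matricellular protein gene and a standard YAP target (ENSMUSG00000028195, chromosome 3, 145646976 to 145649981, minus strand), fell from 1157, 1203 and 1149 to 47.8, 56.8 and 56.3 CPM. The 3 values in each group were close, and the lowest DMSO library was 20.2 times the highest CHIR library (-4.45 ± 0.0535, adjusted p = 7.31e-49). Ankrd1, a nuclear repeat protein induced by stretch, fell from 155, 164 and 165 to 17.3, 15.9 and 15.9 CPM (-3.3 ± 0.0671), Amotl2, an inhibitor of YAP, from 518, 509 and 531 to 101, 94.95 and 101 (-2.39 ± 0.0516), Fhl2 from 120.5, 113 and 112 to 35.7, 34 and 32.3 (-1.76 ± 0.0628) and the kinase gene Nuak2 from 13.2, 15.4 and 17.4 to 4.58, 3.84 and 4.09 (-1.87 ± 0.125). Ccn2, a relative of Ccn1 and also a YAP target, fell much less, from 84.5, 101 and 96.96 to 69.2, 75.3 and 76.02 CPM (-0.36 ± 0.0671), and the muscle gene Tagln likewise (-0.46). Vcl, which encodes vinculin of focal adhesions, rose (0.31). The promoters of Ccn1 and Ankrd1 hold CATTCC, the core letters bound by TEAD factors, and are shown because both genes were among the 20 with the lowest fold change. They are the 250 bases before the RefSeq start on GRCm38.p6, 5′ to 3′ along the gene, at chr3:145649986-145650235 (minus strand) and chr19:36119845-36120094 (minus strand). Capitals mark CATTCC on either strand, which reads GGAATG where it lies on the other strand.
Ccn1: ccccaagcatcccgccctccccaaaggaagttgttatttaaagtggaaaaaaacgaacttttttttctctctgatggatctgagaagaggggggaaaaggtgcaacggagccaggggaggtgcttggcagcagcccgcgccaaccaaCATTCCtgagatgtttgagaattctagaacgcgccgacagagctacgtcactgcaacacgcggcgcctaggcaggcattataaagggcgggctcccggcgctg
Ankrd1: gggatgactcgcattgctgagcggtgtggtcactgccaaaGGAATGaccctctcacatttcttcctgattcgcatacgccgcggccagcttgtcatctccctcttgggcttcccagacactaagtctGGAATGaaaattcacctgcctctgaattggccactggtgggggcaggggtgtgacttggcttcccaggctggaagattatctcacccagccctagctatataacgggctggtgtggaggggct
CATTCC was searched on both strands in a window of 300 bases (250 before to 50 after the start). It was found in 12 of the 21 listed genes with a promoter in the table (57.1%). Of the 10822 tested genes with a promoter 14.6% held it, and of those that fell by 2-fold or more 17.2%.

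The genes of DNA replication and cell division fell together. Over 5 lists (replication origin and helicase, DNA polymerase and nucleotide synthesis, mitosis, kinetochore, recombination) 120 genes were tested, of which 112 were lower, 2 higher and 6 did not pass. That is 93.3% lower against 22.7% of all genes, with a median of -1.82 beside -0.014. Of them 87 fell by 2-fold or more (72.5% against 6.09%). All 26 mitotic kinase, spindle and cytokinesis genes fell (median -2.53), and their summed level was 1188 to 1417 CPM in DMSO and 248 to 282 in CHIR.

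Mki67, the marker of cycling cells (ENSMUSG00000031004, chromosome 7, 135689784 to 135716361, minus strand), stood at 193, 207 and 232 CPM in DMSO and 28.01, 24.4 and 25.8 in CHIR. The groups lay far apart (-3.01 ± 0.103, adjusted p = 1.57e-13). The mitotic kinase gene Plk1 fell from 19.5, 24.3 and 25.1 to 2.91, 2.24 and 3.31 CPM (-3.04 ± 0.111), and Ccnb1, the cyclin of entry into mitosis, from 4.66, 4.67 and 4.95 to 0.298, 0.760 and 0.438 (-3.23 ± 0.234). Of the 26 kinetochore and centromere genes 24 fell and 2 rose (median -2.08), among them Ndc80, which couples kinetochores to microtubules (12.8, 20.4 and 19.7 to 2.16, 1.33 and 2.09 CPM, -3.24 ± 0.179). Mis12, a scaffold of the same structure, was 1 of the 2 that rose (0.25, adjusted p = 0.00229; 0.0501 without DMSO library 1).

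Of 21 replication origin and helicase genes 20 fell (median -1.64), and of 25 DNA polymerase and nucleotide synthesis genes 24 fell (median -0.92). The helicase gene Mcm5 fell from 47.8, 57.7 and 55.7 to 8.64, 6.27 and 8.23 CPM (-2.8 ± 0.0830), Ticrr, an activator of origins, from 12.4, 13.2 and 13.3 to 1.9, 1.597 and 2.19 (-2.79 ± 0.129) and Rrm2, the subunit that limits the making of deoxynucleotides, from 17.4, 19.7 and 19.4 to 2.42, 2.32 and 1.95 (-3.06 ± 0.107). Of 22 recombination and Fanconi genes 18 fell and 4 did not pass (median -1.75), among them the nuclease gene Exo1 (-2.83). The controllers of entry into S phase were less uniform. Of 25 G1 cyclin, E2F and pocket protein genes 18 were lower (72% against 22.7% of all genes) and 3 higher (12%). Their median was -0.5. Mybl2, a transcription factor of late cell cycle genes, fell from 8.34, 6.88 and 8.39 to 0.112, 0.798 and 0.341 CPM (-4.21 ± 0.227) and E2f8 from 15.1, 17.02 and 18.4 to 2.38, 2.43 and 1.75 (-2.92 ± 0.125), while the D cyclin Ccnd2 rose from 448, 497 and 500.1 to 652, 669 and 675 (0.47 ± 0.0513). Among 19 CDK inhibitor and quiescence genes 8 rose and 8 fell (42.1% each way). Cdkn1a, which encodes p21, rose from 13.3, 14.4 and 12.2 to 29.3, 30.00 and 29.1 CPM (1.14 ± 0.0774) and Cdkn1c, which encodes p57, fell from 13.9, 12.7 and 13.9 to 5.89, 7.15 and 5.26 (-1.14 ± 0.208).

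Promoters of mitotic genes are known for a pair of short elements, CCAAT boxes, which NF-Y binds, and the CHR element TTTGAA, which the DREAM complex binds. In the 300-base windows, TTTGAA was found on either strand in 26 of 44 mitotic and kinetochore genes with a promoter in the table (59.1%) and in 14.3% of the 10822 tested genes. CCAAT was found in 36 of the 44 (81.8%) and in 42.9%. Of the genes that fell by 2-fold or more, 22.3% held TTTGAA and 45.9% held CCAAT, the latter near the 42.9% over the tested genes. A match is a description of letters and no measure of binding. The 3 promoters below show both elements in genes that fell by 2.58 to 3.01 on the log2 scale. They are the 250 bases before the RefSeq start on GRCm38.p6, 5′ to 3′ along the gene, from chr7:135716380-135716629, chr9:70421555-70421804 and chr3:27153855-27154104, all on the minus strand, and capitals mark TTTGAA and CCAAT on either strand (ATTGG is CCAAT on the other strand).
Mki67: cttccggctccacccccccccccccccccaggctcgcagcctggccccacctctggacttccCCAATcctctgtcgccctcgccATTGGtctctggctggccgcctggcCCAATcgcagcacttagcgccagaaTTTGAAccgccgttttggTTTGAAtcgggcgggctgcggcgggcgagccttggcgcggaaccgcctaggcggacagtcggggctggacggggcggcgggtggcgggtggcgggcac
Ccnb2: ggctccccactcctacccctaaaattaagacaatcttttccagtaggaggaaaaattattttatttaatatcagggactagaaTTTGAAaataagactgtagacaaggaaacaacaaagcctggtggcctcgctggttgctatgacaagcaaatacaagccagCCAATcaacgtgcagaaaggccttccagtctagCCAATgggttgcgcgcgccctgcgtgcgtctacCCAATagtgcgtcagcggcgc
Ect2: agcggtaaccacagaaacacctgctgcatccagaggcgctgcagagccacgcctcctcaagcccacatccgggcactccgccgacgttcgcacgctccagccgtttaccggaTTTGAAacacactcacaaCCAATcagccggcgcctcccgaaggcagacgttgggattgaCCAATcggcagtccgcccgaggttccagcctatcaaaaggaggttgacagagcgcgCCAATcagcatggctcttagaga
Mki67 holds 2 copies of TTTGAA with 3 of CCAAT, and the cyclin gene Ccnb2 and the cytokinesis gene Ect2 hold 1 with 3.

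The group order for the division genes differed from that for the early genes. CHIR had the lowest of the 7 group means for 115 of the 120 genes (95.8% against 24.3% of all genes), and DMSO had the highest for 0. Mki67 averaged 26.1 ± 1.84 CPM in CHIR, 211 ± 19.9 in DMSO, 439 ± 37.4 in TGFb1, 408 ± 27.8 in TGFb1 + DMSO and 214 ± 15.9 in TGFb1 + CHIR (mean ± SD, n = 3). TGFb1 + CHIR and DMSO thus had like levels, CHIR alone stood below both, and the groups with TGFb1 without CHIR stood above.

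**Figure D3:**
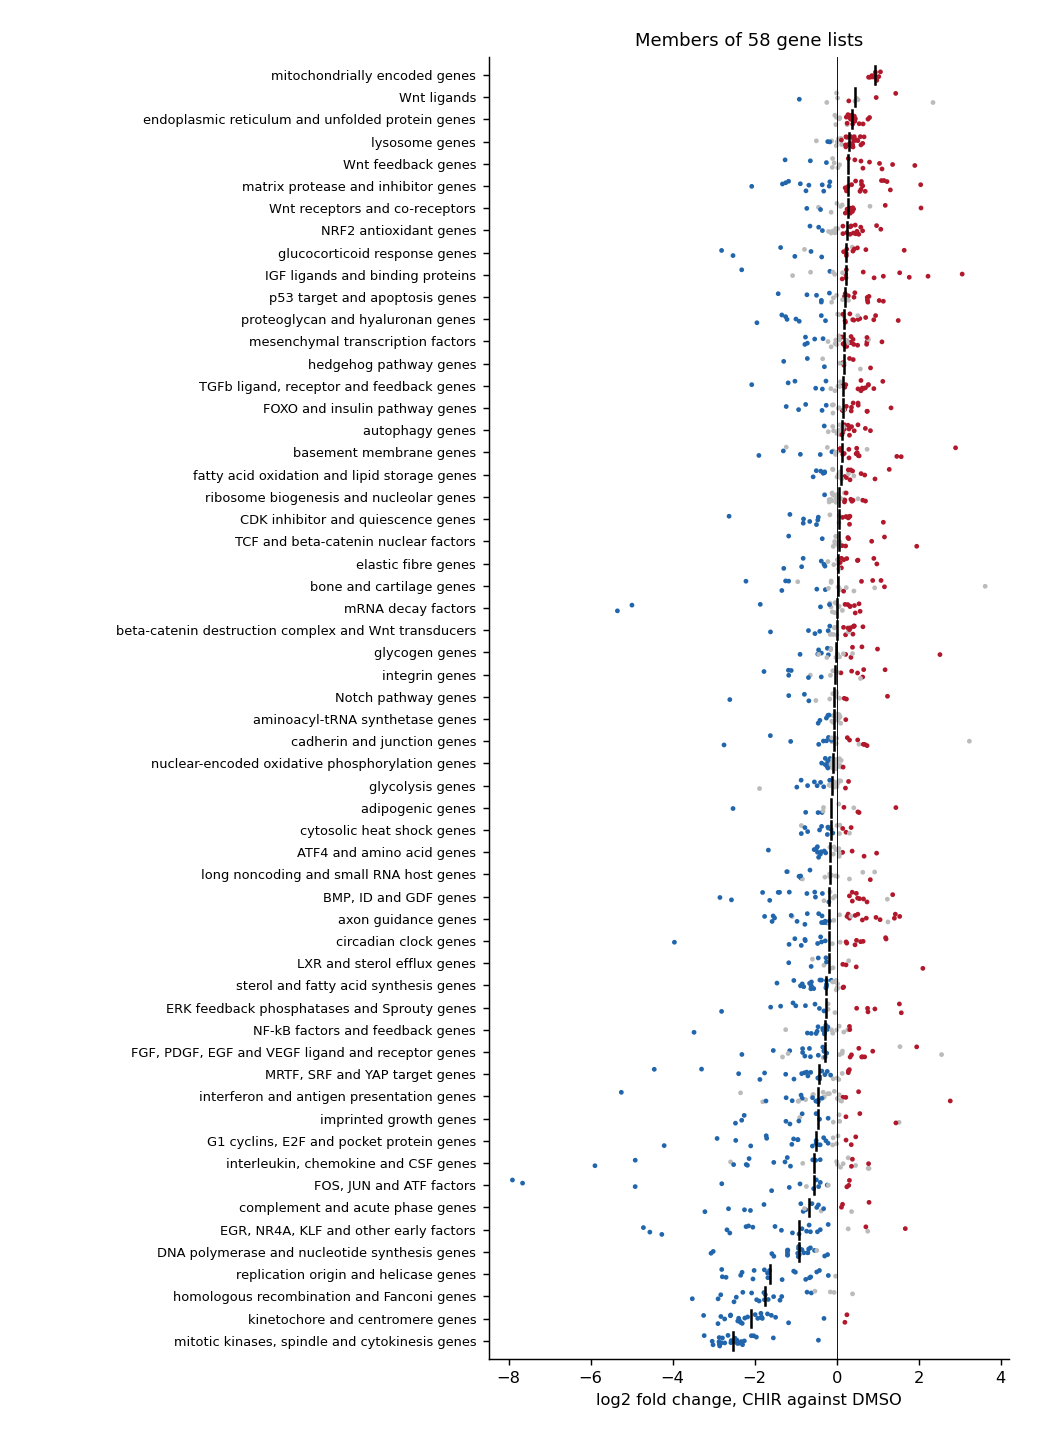
Log2 fold change of CHIR against DMSO (x axis) for each tested member of 58 gene lists (rows, in the order of their medians), 1 point per gene, red where higher and blue where lower by the test and grey where not past it, with a black bar at the median. Mitotic and kinetochore genes sit lowest, with medians of -2.53 and -2.08, and the mitochondrially encoded genes highest, with 0.93.

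Genes of the FOXO and insulin pathway rose more often than they fell. FOXO factors are the nuclear factors that insulin and IGF signals hold out of the nucleus. Of 22 genes of FOXO targets and insulin signalling 11 rose and 5 fell (50% higher against 22.1%, median 0.16). With transcript length and GC fitted 11 rose and 7 fell. Fbxo32, the ubiquitin ligase atrogin and a classic FOXO target, rose from 133, 123 and 127 to 325, 332 and 306 CPM (1.33 ± 0.0506), and Foxo3 (0.74) and Foxo1 (0.52) rose themselves. Of 18 IGF ligands and binding proteins 11 rose (61.1%) and 2 fell (4 fell with transcript length and GC fitted). Igf1 rose from 45.9, 40.5 and 42.2 to 148, 157 and 135 CPM (1.77 ± 0.0932, adjusted p = 3.23e-16), whereas the fetal ligand Igf2 fell from 63.5, 52.95 and 53.7 to 10.8, 12.6 and 10.8 (-2.32 ± 0.196, adjusted p = 2.86e-09). Each ligand parted the groups with no overlap, in opposite directions. Igfbp2 was near its floor at 0.272, 0.336 and 0.203 CPM in DMSO and 2.42, 0.380 and 1.07 in CHIR (2.23 ± 0.602), and CHIR library 1 decided its call (1.37, adjusted p = 0.125 without it).

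Glycogen genes, downstream of the textbook substrate of GSK3, were called at shares near those of all genes, with 6 of 21 higher and 6 lower (28.6% each way against 22.1% and 22.7%). The phosphatase-targeting genes Ppp1r3c (2.52) and Ppp1r3b (9.15, 9.099 and 12.7 to 20.4, 22.6 and 18.2 CPM, 1.0 ± 0.106) rose, while Gys1, the muscle-type glycogen synthase, fell (-0.37).

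Lysosome, autophagy, antioxidant and endoplasmic reticulum genes rose by small amounts in large shares of their lists. Of 32 lysosome genes 23 rose and 2 fell (71.9% higher against 22.1%, median 0.31), and their summed level was 15890 to 16350 CPM in DMSO and 20260 to 20900 in CHIR. Ctsb, a lysosomal protease, rose from 1907 ± 102 to 2879 ± 51.9 CPM (mean ± SD, n = 3; 0.59 ± 0.0380 on the log2 scale), Ctsk, a collagen-cutting protease, from 77.3, 79.7 and 82.4 to 120.0, 118 and 135 (0.64 ± 0.0529) and Atp6v1a, a subunit of the proton pump, from 188, 189 and 187 to 273, 292 and 278 (0.58 ± 0.0424). Asah1, an acid ceramidase gene, fell (-0.22). Mitf, a factor of the TFEB family that drives lysosome genes, rose from 42.8, 43.1 and 42.4 to 76.3, 79.3 and 71.8 CPM (0.83 ± 0.0708). The letters CACGTG are the core of the element these factors bind. On either strand they were found in 14 of 25 lysosome genes with a promoter in the table (56%) and in 11.5% of all tested. Of the genes that rose by 2-fold or more, 7.81% held them. The promoter of Atp6v1a is shown as an example of a listed gene that rose, as the 250 bases before the RefSeq start on GRCm38.p6 at chr16:44139260-44139509 (minus strand), with CACGTG in capitals.
Atp6v1a: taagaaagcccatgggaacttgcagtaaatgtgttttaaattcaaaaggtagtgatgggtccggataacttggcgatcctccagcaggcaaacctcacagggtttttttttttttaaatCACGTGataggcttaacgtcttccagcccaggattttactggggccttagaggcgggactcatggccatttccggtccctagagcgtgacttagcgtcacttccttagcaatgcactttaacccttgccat
Of 26 autophagy genes 13 rose (50%) and 1 fell (16 and 3 with transcript length and GC fitted). Gabarapl1, which decorates autophagosomes, rose from 292, 284 and 276 to 462, 462 and 462 CPM (0.7 ± 0.0406).

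Of 25 NRF2 antioxidant genes 15 rose and 3 fell (60% higher, median 0.25). Gclc, the enzyme that limits glutathione synthesis, rose from 54.7, 56.7 and 49.9 to 114, 115 and 112 CPM (1.08 ± 0.0556) and Slc7a11, the cystine carrier, from 13.9, 17.5 and 19.6 to 29.5, 34.6 and 35.99 (0.98 ± 0.137). Nqo1, a quinone reductase and a common NRF2 readout, was at 21.7, 20.8 and 22.01 CPM in DMSO and 20.97, 22.1 and 19.6 in CHIR, with overlapping groups (adjusted p = 0.809). Of 27 endoplasmic reticulum and unfolded protein genes 21 rose and 0 fell (77.8% higher, median 0.37). The stress sensor Atf6 rose from 108, 108 and 113 to 184, 193 and 183 CPM (0.77 ± 0.0542) and Ern1, which encodes the sensor IRE1, from 35.5, 35.05 and 33.1 to 58.9, 60.7 and 61.6 (0.8 ± 0.0657). The chaperone genes Hspa5 (0.31), Calr (0.46) and Hyou1 (0.55) rose by less.

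All 10 tested genes of the mitochondrial genome rose (median 0.93), and their summed level was 5350 to 5664 CPM in DMSO and 9641 to 11790 in CHIR. mt-Nd4, a subunit of complex I, rose from 604, 524 and 571 to 1086, 1325 and 1054 CPM (1.03 ± 0.134). The nuclear genes for the same machinery did not follow. Of 30, 1 was higher (3.33% against 22.1% of all genes), 9 were lower (30% against 22.7%) and 20 did not pass (median -0.089). With transcript length and GC fitted 7 were higher and 3 lower (median 0.008). Ppargc1a, a co-activator of mitochondrial genes, rose from 5.71, 4.94 and 6.93 to 13.1, 15.2 and 14.5 CPM (1.28 ± 0.252, adjusted p = 6.1e-05; with DESeq2 1.29, adjusted p = 0.0865).

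Sterol and fatty acid synthesis genes fell in 19 of 29 cases and rose in 2 (65.5% lower against 22.7%, median -0.26). Mvk, which encodes mevalonate kinase, fell from 27.1, 27.6 and 24.5 to 11.9, 13.9 and 12.7 CPM (-1.04 ± 0.0917). Genes of fatty acid oxidation and lipid storage were mixed (10 of 26 higher, 38.5%, and 6 lower, 23.1%), with the lipid droplet coat gene Plin2 (0.94) and the carnitine transferase gene Cpt1a (0.69) among those that rose. Of 23 ATF4 and amino acid genes 10 fell (43.5%) and 4 rose (17.4%), among them Cth, which makes cysteine (16.3, 17.8 and 17.1 to 5.7, 5.36 and 5.02 CPM, -1.66 ± 0.129), and Atf4 itself (-0.47).

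Matrix genes moved in both directions. All 27 tested matrix protease and inhibitor genes passed the test (median 0.28). Of them 16 were higher (59.3% against 22.1% of all genes) and 11 lower (40.7% against 22.7%). Collagenase-3, Mmp13, rose from 5.85, 6.38 and 6.49 to 26.8, 24.1 and 26.7 CPM (2.05 ± 0.163), stromelysin, Mmp3, from 687, 579 and 582 to 1419, 1359 and 1337 (1.16 ± 0.109) and the gelatinase Mmp9 from 6.67, 7.15 and 7.22 to 19.4, 15.7 and 16.9 (1.31 ± 0.0952). The plasminogen activator gene Plau fell from 71.7, 80.1 and 77.4 to 29.9, 28.6 and 33.5 CPM (-1.32 ± 0.0661). The aggrecanase gene Adamts5 fell from 601, 606 and 655 to 268, 269 and 249 CPM (-1.24 ± 0.0538) and Adamts1 from 392, 392 and 389.6 to 174, 177 and 169.9 (-1.17 ± 0.0458). Timp1 rose (0.61) where Timp3 fell (-0.75).

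Of 26 basement membrane genes 14 rose (53.8% against 22.1% of all genes) and 5 fell (19.2% against 22.7%). The network collagen chains Col4a1 (1429, 1411 and 1396 to 1951, 1875 and 2069 CPM, 0.48 ± 0.0411) and Col4a2 (0.49) rose by like amounts. Lama2, a laminin chain, rose from 18.6, 19.4 and 19.6 to 54.7, 48.8 and 56.2 CPM (1.47 ± 0.102), while Nid2, which links laminin to collagen, fell from 344, 328 and 329.5 to 138, 131 and 138 (-1.3 ± 0.103) and Smoc2 from 40.4, 43.8 and 43.2 to 13.2, 9.96 and 11.01 (-1.9 ± 0.101). Small leucine-rich proteoglycans, which bind collagen fibrils, parted: Aspn rose from 27.6, 28.1 and 27.9 to 77.7, 88.2 and 70.96 CPM (1.5 ± 0.124) and Dcn rose (0.57), whereas Ogn fell from 838, 938 and 942 to 334, 390.2 and 352 (-1.34 ± 0.0693) and Fmod from 354, 340.5 and 328 to 142, 142 and 148 (-1.24 ± 0.0545). Over the 24 tested proteoglycan and hyaluronan genes 12 rose (50%) and 8 fell (33.3%). Of 20 elastic fibre genes 9 rose (45%) and 6 fell (30%), and 7 rose and 7 fell with transcript length and GC fitted. Fbln1 was higher (0.98), as was Ltbp1, which tethers latent TGFb (0.91). The microfibril gene Mfap5 was lower (113, 114 and 112 to 45.8, 44.5 and 48.8 CPM, -1.29 ± 0.0577).

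Cytokine, NF-kB and complement genes fell in larger numbers than they rose. Of 26 interleukin, chemokine and CSF genes 13 fell and 3 rose (50% lower against 22.7%, median -0.55), and their summed level was 3855 to 3958 CPM in DMSO and 2247 to 2305 in CHIR. Il6 fell from 10.9, 9.84 and 9.08 to 0.112, 0.228 and 0.146 CPM (-5.9 ± 0.241, adjusted p = 1.15e-25), the neutrophil chemokine gene Cxcl1 from 92.98, 82.8 and 80.8 to 2.57, 3.27 and 2.63 (-4.91 ± 0.180) and the monocyte chemokine gene Ccl2 from 196, 189.9 and 196 to 65.5, 70.9 and 64.3 (-1.53 ± 0.0864). Lif fell from 10.1, 11.7 and 13.6 to 2.38, 2.66 and 2.58 CPM (-2.21 ± 0.113), while Cx3cl1, the membrane-bound chemokine fractalkine, rose from 141, 141 and 148 to 248, 229.6 and 260.3 (0.78 ± 0.0558). Of 23 NF-kB factors and feedback genes 14 fell (60.9%) and 2 rose, with Nfkbiz, a nuclear co-factor needed for Il6 in other cells, falling from 138, 104 and 103 to 10.7, 10.7 and 9.45 CPM (-3.48 ± 0.0987). Of 18 complement and acute phase genes 12 fell and 3 rose (66.7% lower). The pentraxin gene Ptx3 fell from 60.1, 61.5 and 71.1 to 12.9, 13.8 and 13.9 CPM (-2.25 ± 0.0946) and the C1 inhibitor gene Serping1 from 83.4, 75.1 and 76.4 to 25.1, 21.8 and 21.9 (-1.77 ± 0.101).

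Interferon genes were low and uneven. Of 33 interferon and antigen presentation genes 11 fell (33.3% against 22.7%), 4 rose and 18 did not pass (median -0.45). Isg15 was at 2.21, 6.55 and 4.62 CPM in DMSO and 0.969, 1.41 and 1.75 in CHIR (-1.72 ± 0.445), and Irf7 at 1.43, 4.83 and 3.24 and 0.857, 1.67 and 1.56, with overlapping groups (-1.23 ± 0.463, adjusted p = 0.0417). The call for Irf7 was lost when any CHIR or DMSO library but DMSO library 1 was left out. Adjusted p then ran from 0.06 without CHIR library 2 to 0.235 without DMSO library 2. The call was also lost with limma voom (adjusted p = 0.0579), no filter on low counts (0.0832) or transcript length and GC fitted (0.0726). DMSO library 1 had the lowest value of both genes among the DMSO libraries. The antigen presentation genes H2-D1 (0.54), which has close relatives that could share its reads, and B2m (0.23) rose.

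Signalling genes around TGFb, BMP and growth factors were divided. Of 24 TGFb ligand, receptor and feedback genes 13 rose (54.2% against 22.1% of all genes) and 6 fell (25% against 22.7%). With transcript length and GC fitted 14 rose and 9 fell. The receptor gene Tgfbr1 rose from 93.1, 97.2 and 102 to 199, 227 and 213 CPM (1.13 ± 0.0542). The ligand gene Tgfb2 rose from 34.7, 30.8 and 32.3 to 58.4, 55.8 and 52.4 CPM (0.77 ± 0.0623). Of 26 BMP, ID and GDF genes 12 fell (46.2%) and 9 rose (34.6%). Bmp6 fell from 23.4, 23.97 and 25.9 to 3.24, 3.99 and 5.31 CPM (-2.57 ± 0.144) and Bmp4 from 2.25, 2.79 and 2.797 to 0.708, 0.266 and 0.0487 (-2.85 ± 0.431), while the antagonist Grem1 rose (above). Of 30 FGF, PDGF, EGF and VEGF genes 14 fell (46.7%) and 8 rose (26.7%), with the lymphatic growth factor gene Vegfd falling from 1200, 1216 and 1199 to 421, 410.2 and 408 CPM (-1.54 ± 0.0580), Fgf18 from 3.37, 4.16 and 4.26 to 0.782, 0.875 and 0.682 (-2.31 ± 0.197) and Fgf2 rising from 44.3, 43.8 and 44.3 to 78.05, 84.95 and 80.8 (0.88 ± 0.0509). Edn1, the vasoconstrictor endothelin, fell from 26.5, 30.8 and 28.6 to 2.35, 2.36 and 2.63 CPM (-3.55 ± 0.163). Among 34 axon guidance genes 12 rose (35.3%) and 16 fell (47.1%), from Sema7a (1.54) and Sema5a (1.43) to Sema3f (-1.57).

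Imprinted and clock genes moved in both directions. Of 18 imprinted growth genes 10 fell (55.6% against 22.7% of all genes) and 3 rose (16.7% against 22.1%), with Mest falling from 32.7, 29.7 and 30.2 to 5.14, 6.12 and 5.45 CPM (-2.47 ± 0.151), the noncoding Meg3 from 16.6, 16.3 and 16.1 to 3.73, 3.57 and 2.87 (-2.25 ± 0.157) and Dlk1, an inhibitor of fat cell formation, rising from 13.98, 14.4 and 14.4 to 40.1, 35.9 and 40.7 (1.45 ± 0.0882). The fat cell factor gene Cebpd fell from 33.4, 28.9 and 28.3 to 5.55, 5.704 and 4.33 CPM (-2.53 ± 0.119). Of 20 clock genes 8 rose (40%) and 10 fell (50%), among them the clock output gene Hlf, which rose from 56.9, 45.3 and 43.2 to 113, 122 and 101 CPM (1.21 ± 0.189), and Per1, which fell from 71.4, 57.8 and 56.95 to 31.9, 31.03 and 28.9 (-1.02 ± 0.0921). Of 23 p53 target and apoptosis genes 11 rose (47.8%) and 6 fell (26.1%), with the survival gene Bcl2 rising from 39.1, 45.1 and 42.4 to 90.2, 93.6 and 75.97 CPM (1.04 ± 0.0812). The remaining lists (heat shock, adipogenic genes, ribosome biogenesis, tRNA synthetases, glycolysis, sterol efflux, hedgehog, Notch, cartilage, integrins, junctions, mesenchymal factors, glucocorticoid response, noncoding host genes) had medians between -0.19 and 0.24.

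The direction of change went with transcript length and base composition. Among 13037 protein-coding genes, the bin with the shortest annotated transcripts (of 5 equal bins, 252 to 2034 bases) had a median log2 fold change of -0.143, with 9.2% of genes higher and 30.3% lower. In the bin with the longest (5354 to 123179 bases) the median was 0.172, with 47.9% higher and 18.1% lower, and the bins between them gave -0.089, -0.031 and 0.032. From the lowest to the highest bin of GC content the medians were 0.093, 0.048, 0.006, -0.08 and -0.138. For CHIR with TGFb1 the medians of the length bins were 0.047, -0.019, -0.03, -0.029 and -0.014. What sets this trend was not tested. With length and GC fitted as trends, 422 genes were higher and 928 lower by 2-fold or more, near the 436 and 986 without.

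**Figure D4:**
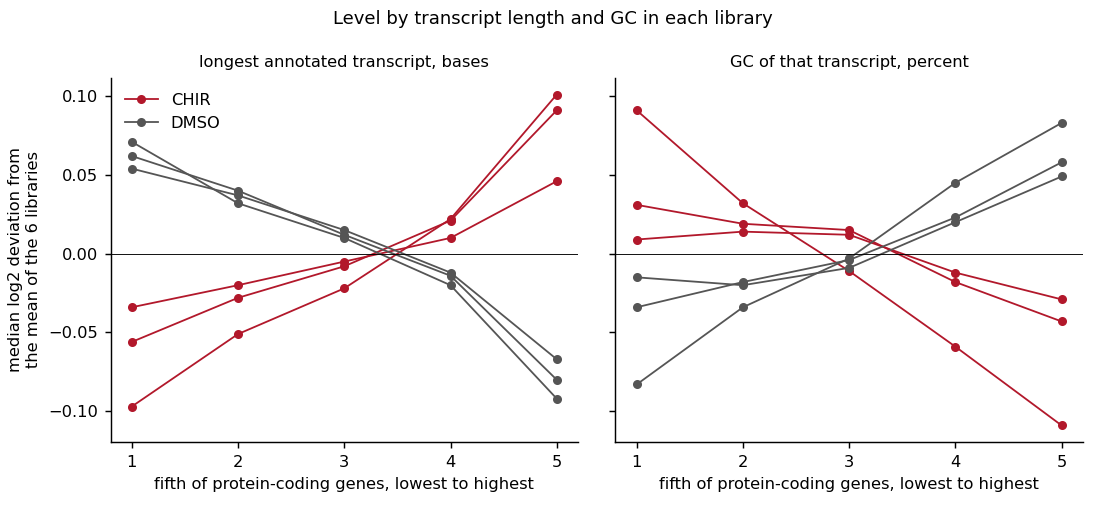
Median deviation of protein-coding genes from their mean over the 6 libraries (y axis, log2) in 5 equal bins of transcript length (left) and GC content (right), lowest to highest along the x axis, 1 line per library. In the bin of the shortest transcripts the CHIR libraries lie below 0 (-0.097 to -0.034) and the DMSO libraries above (0.054 to 0.071), and in the bin of the longest the order is the opposite.

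Much of the response differed when TGFb1 was present. The difference between the CHIR effects (TGFb1 + CHIR against TGFb1 + DMSO, less CHIR against DMSO, which share no library) passed for 6681 genes (41.2%). TGFb1 + CHIR against TGFb1 + DMSO had 7019 genes past the test (43.3%). Of the 1422 genes that changed by 2-fold or more without TGFb1, 887 (62.4%) passed the test of the difference. These genes were chosen by the same CHIR against DMSO change that enters the difference, which by itself raises this share. Of the 436 that rose, 120 were also higher with TGFb1, 91 were lower and 225 did not pass. Of the 986 that fell, 466 were also lower, 101 were higher and 419 did not pass.

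Most early genes fell without TGFb1, and their median was near 0 with it. Over their 57 members the median was -0.67 without TGFb1 and 0.05 with it, and 45 (78.9% against 41.2%) passed the test of the difference. Fos changed by -7.66 without TGFb1 and was at 0.16 with it (adjusted p = 0.474), a difference of 7.82 ± 0.274 (adjusted p = 1.3e-12). Jun gave -2.8 and 0.18 (difference 2.98 ± 0.102), and Srf -1.35 and 0.00 (difference 1.35 ± 0.0857). The YAP target gene Ankrd1 fell without TGFb1 (-3.3) and rose with it (1.04), with a difference of 4.33 ± 0.0871. Its list of MRTF, SRF and YAP targets did not turn as a whole, with medians of -0.44 and -0.28. Ccn1 fell in both settings (-4.45 and -0.54). Of the 26 listed genes 23 passed the test of the difference, 14 with a higher and 9 with a lower fold change when TGFb1 was present. The division genes fell in both settings but by less with TGFb1, with medians of -1.82 and -0.75, and 98 of 120 (81.7%) passed the test of the difference. Mki67 fell by 3.01 and 0.93 on the log2 scale (difference 2.09 ± 0.134, adjusted p = 1.2e-09).

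Most Wnt feedback genes rose more with TGFb1. Their median was 0.29 without TGFb1 and 2.51 with it, and all 17 passed the test of the difference, 13 with a higher and 4 with a lower fold change when TGFb1 was present. Axin2 rose by 1.91 and 3.74 (difference 1.83 ± 0.173), Notum by 1.37 and 4.55 (difference 3.19 ± 0.472), and Nkd1 fell by 0.25 on the log2 scale without TGFb1 and rose by 2.71 with it (difference 2.96 ± 0.103). Lef1 rose by 1.95 and 1.56, and that difference did not pass (adjusted p = 0.11). Sfrp1 and Apcdd1, which fell without TGFb1, rose with it (0.99 and 3.17). Among the 4, Frzb rose without TGFb1 and fell with it (1.05 and -3.1), as did Trabd2b (1.11 and -0.43) and Dkk3 (0.64 and -0.14), and Sfrp4 gave 0.8 and -0.46, the latter not past the test (adjusted p = 0.07).

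Several matrix genes turned direction. Col15a1 rose without TGFb1 and fell with it (-3.45), a difference of -6.36 ± 0.133 (adjusted p = 1.08e-33), from means of 28.6 ± 1.5 CPM in TGFb1 + DMSO and 2.61 ± 0.0800 in TGFb1 + CHIR. Col4a1 changed by 0.48 and -1.89 (difference -2.37 ± 0.0594), and Lama2 by 1.47 and -1.55 (difference -3.02 ± 0.170). Igf1 rose without TGFb1 (1.77) and was at -0.05 with it (adjusted p = 0.775), and the endoplasmic reticulum list had medians of 0.37 and -0.19. Acta2 changed by -0.85 and -0.84, and the difference did not pass (adjusted p = 0.902). Mmp2 rose in both settings, by 1.23 and 0.93, and its difference passed (-0.3 ± 0.0519, adjusted p = 3.77e-06). The lysosome list had medians of 0.31 and 0.48, and 22 of its 32 genes (68.8% against 41.2%) passed the test of the difference. The interferon and antigen presentation list had medians of -0.45 and -2.81. Of its 33 genes 27 passed the test of the difference (81.8%), 25 with a lower and 2 with a higher fold change when TGFb1 was present.

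**Figure D5:**
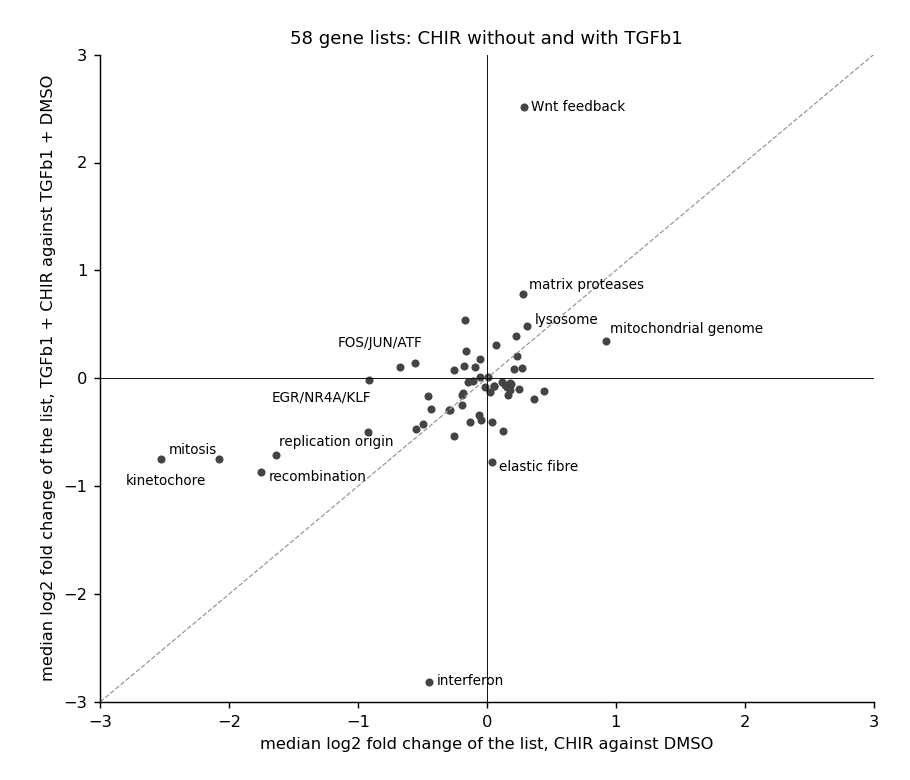
Median log2 fold change of each of 58 gene lists for CHIR against DMSO (x axis) and for TGFb1 + CHIR against TGFb1 + DMSO (y axis), 1 point per list, with the dashed line marking equal medians. The early gene lists lie left of 0 on the x axis and near 0 on the y axis, and Wnt feedback genes lie at 0.29 and 2.51.

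By gene class, 3358 of 13043 protein-coding genes were higher (25.7%) and 3379 lower (25.9%). Of 401 long intergenic noncoding RNAs 36 were higher (8.98%) and 56 lower (14%), and of 480 antisense genes, whose reads cannot be told from those of the opposite strand where counting ignored strand, 26 (5.42%) and 44 (9.17%). Of 388 loci of the annotation class TEC, transcripts still to be tested by experiment, 44 were higher (11.3%) and 18 lower (4.64%). These shares all lie below those of all genes (22.1% and 22.7%), protein-coding genes excepted. Of 9 small nucleolar RNA genes 0 were higher and 4 lower (44.4%).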

How the data were processed

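The deposited table holds the authors' raw counts per gene for 21 libraries, and all 21 single-library tables equalled their columns. No source used here names the aligner, the counter or the strand setting. The submitters' processing notes name the builds GRCh38 and GRCm38 without a role. Of 52636 gene IDs, 52489 were found in GENCODE M21 (GRCm38), which gave symbols and positions. Gapdh held 45 counts in all libraries together, so genes with near-identical copies may be undercounted.

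With edgeR 4.0.16 under R 4.3.3, counts passing filterByExpr were scaled by TMM and fitted with 1 coefficient for each of 7 groups, followed by robust quasi-likelihood F-tests and Benjamini-Hochberg adjustment over 16197 genes at 0.05. The SE is the log2 fold change over the root of F, 14 residual degrees of freedom were shared by the groups, and an exact test of 3 against 3 libraries cannot go below p = 0.1. The fit was run on simulated counts with the DMSO means in every group and far fewer changed genes than were called here. CHIR against DMSO recovered 68 of 80 genes changed by 1.5-fold and 60 of 60 changed by 4-fold, with 13 others called. The test of the difference recovered 52 of 80 and 60 of 60, with 5 others called. Levels are CPM of TMM-scaled libraries. Promoters come from RefSeq (GRCm38.p6), matched by gene symbol alone for 10822 tested genes. Alternatives were DESeq2 1.42.0, limma 3.58.1 (voom), RLE size factors, a filter of 1 CPM in 3 or more libraries and no filter at all. Further ones left out mitochondrial and rRNA genes or fitted the compared groups alone. Each library of CHIR, DMSO, TGFb1 + CHIR and TGFb1 + DMSO was also left out in turn. Trends for transcript length and GC were fitted too, chosen after seeing the data.

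The comparison and the 58 gene lists were chosen with earlier results of these data known, and no list was tested as a set. Named were 20 genes in each direction by fold change (mean of at least 2 log2 CPM, no overlap of the groups), the 10 that gained and the 10 that lost most CPM, up to 6 members of each list, 6 per direction in the test of the difference, and 13 fixed genes. Some genes so chosen are not reported here.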

Additional observations from a re-analysis of the deposited data

Results flagged for a closer look

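The response to CHIR differed between cells without and with TGFb1 for 6681 genes, tested with edgeR as the difference of both contrasts (adjusted p under 0.05). Differences are log2 fold changes of TGFb1 + CHIR against TGFb1 + DMSO less those of CHIR against DMSO, so a positive value marks a gene that CHIR lowered more, or raised less, without TGFb1. The values on the positive side were Fstl4 at 10.21, Fosb at 7.94, Fos at 7.82, Zfp36 at 5.84, Osr2 at 5.60 and Clca3a1 at 5.58. Osr2, a developmental transcription factor, fell from 57.9, 50.03 and 48.9 to 32.2, 31.6 and 27.9 CPM without TGFb1 (-0.77 ± 0.0988) and rose from a mean of 2.01 to 57.6 CPM with it. On the negative side were Gprin3 at -7.20, Col15a1 at -6.36, Hr at -4.72, Nfatc2 at -4.39, the decoy receptor Frzb at -4.14 and Fmo2 at -4.12. Hr, a nuclear co-repressor, rose from 3.54, 3.66 and 2.59 to 6.86, 6.39 and 6.28 CPM without TGFb1 (0.98 ± 0.127) and fell from a mean of 19.9 to 1.49 CPM with it.

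Of these genes 5 rest on few counts with TGFb1, so their differences are fitted values and no measure of size. Fstl4, which encodes a follistatin-like protein, had 0 counts in all 3 TGFb1 + DMSO libraries and 22, 9 and 11 in TGFb1 + CHIR. Clca3a1 had 0, 0 and 3 counts in TGFb1 + DMSO and 3, 2 and 0 in TGFb1 + CHIR. Gprin3 had 47, 59 and 51 counts in TGFb1 + DMSO and 0, 0 and 1 in TGFb1 + CHIR, Fmo2 had 2, 3 and 0 against 0, 0 and 0, and Nfatc2 had 23, 15 and 11 against 5, 2 and 5. Without TGFb1, Fstl4 fell from 16.2, 17.9 and 18.6 to 1.68, 2.13 and 1.997 CPM (-3.18 ± 0.215) and Clca3a1 from 97.2, 99.7 and 98.6 to 4.51, 4.03 and 3.26 (-4.63 ± 0.148), with groups far apart. Gprin3 was at 3.23, 3.895 and 2.72 CPM in DMSO and 5.59, 5.67 and 3.799 in CHIR, with overlapping groups, and its call (adjusted p = 0.049) was lost without CHIR library 1 or 2 or DMSO library 1 or 3 (log2 fold changes of 0.5 to 0.6, adjusted p from 0.104 to 0.183). It was also lost with no filter on low counts (adjusted p = 0.0522), with a filter of 1 CPM (0.052), without mitochondrial and rRNA genes (0.0513), and with transcript length and GC fitted (0.37, adjusted p = 0.259). Fmo2, a flavin monooxygenase gene, was at 26.8, 26.2 and 24.4 and 32.9, 34.8 and 31.2 CPM, and its call was lost without CHIR library 2 (0.31, adjusted p = 0.0848) or DMSO library 3 (0.32, adjusted p = 0.0655).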

How the results depend on the processing

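All 5 counts (genes higher, lower, higher and lower by 2-fold, and past the test of the difference) stayed within 1.5 times their reported values in every alternative. With each CHIR and DMSO library left out in turn (6 settings) there were 3205 to 3352 genes higher and 3222 to 3420 lower. By 2-fold 377 to 446 were higher and 893 to 959 lower. With each CHIR, DMSO, TGFb1 + CHIR and TGFb1 + DMSO library left out (12 settings), 6148 to 6481 passed the test of the difference. Under the other 8 settings there were 3481 to 3755 higher, 3480 to 3800 lower, 367 to 493 higher and 859 to 992 lower by 2-fold, and 6382 to 6769 past the test of the difference. Of 317 genes followed, 18 changed call in any setting: 48 calls were lost and 2 gained (Wnt4). Gsk3a turned to 0.0088 (adjusted p = 0.944) with transcript length and GC fitted as trends, and the cause was not tested. No paired analysis was possible because the labels give no replicate numbers that link CHIR and DMSO libraries. Depth limits the 142 tested genes that had 0 counts throughout a group, whose fitted fold changes are no measure of size. Treatment and any difference in handling between the groups cannot be told apart.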
